A study of Daphnia magna with 230 samples.

Results

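Transcripts that rise and fall together with a cuticle protein were followed in whole *Daphnia magna*, a freshwater crustacean used in toxicity testing. The members were chosen by their measured correlation in the stormwater libraries. Expression was taken as log2(CPM + 1), where CPM is the estimated count of a transcript per 1000000 counts of its library. Each transcript was centered on its mean within every sampling point and season of the stormwater libraries, and the transcripts with a mean of at least 5 CPM were ranked by their Pearson r with the cuticle protein transcript Dapma7bEVm003984t1. The module holds this reference transcript and the 150 transcripts with the highest r, out of 12238 transcripts ranked and 29127 in all. It was picked as a candidate readout of where each pool of animals stood in its molt cycle. Molt stage itself is not recorded in the labels.

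The animals were neonates less than a day old at the start, exposed for 96 h and sequenced as pools of 5. In the wetland experiment, 69 libraries form 15 groups. Laboratory water makes up 3 of them, Lab Water-0 ng/L, Lab Water-119 ng/L and Lab Water-239 ng/L, with 5 libraries each. The figure in these names is the concentration of pyriproxyfen, an insecticide that mimics juvenile hormone. Water of the 6 wetlands Breen, Douglas, Kandiyohi, Kerk, LeSouer and Woodland was used unspiked (Wetland-0 ng/L, 30 libraries) and spiked (Wetland-119 ng/L, 24 libraries). According to the methods the unspiked wetland waters held the ethanol vehicle and the laboratory control did not. In the stormwater experiment no pyriproxyfen was added. Its libraries come from 9 sampling points, the inflow and outfall of 3 filter sites (37ST, TBNS1 and TBNS2) and 3 storm pipes (Cedar-Lake, Crystal-Lake and SAP), in spring (45), early summer (44) and late summer (50). Its 21 laboratory control libraries (SCSU Control) carry the same season labels, 6 for spring, 5 for early summer and 10 for late summer. The pools of a group were drawn from animals exposed to the same water sample, so p-values measure the spread between these pools.

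The exoskeleton of a crustacean is built from chitin and structural cuticle proteins. It cannot grow, so the animal lays down a new cuticle beneath the old one and then sheds the old one. In arthropods, cuticle genes are switched on and off in waves within each molt cycle under the control of ecdysteroids, while juvenile hormone affects what kind of molt follows. *Daphnia* neonates molt repeatedly within a few days, and animals in one beaker need not be in step.

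The reference transcript was first set beside sequencing depth. Library totals lay between 5040650 and 15037010 counts, and a floor of 3 counts is then 0.2 CPM in the deepest library and 0.595 CPM in the shallowest, for counting error only. Within groups, the r of the reference transcript with the log2 library total was -0.11 in the wetland experiment (69 libraries) and 0.04 in the stormwater libraries, and it was 0.36 in the 21 controls. None of 449 pairs of replicate libraries held the same counts. CPM is not scaled for transcript length, so levels are compared between libraries and not between transcripts. In pools of whole animals, fewer cells or animals with a transcript and less RNA in each cannot be told apart.

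The reference transcript covered a wide range of levels. In the wetland experiment it was under 1 CPM in 31 of 69 libraries, between 1 and 10 CPM in 11, between 10 and 100 CPM in 10 and at 100 CPM or more in 17. In stormwater the same 4 bands held 67, 24, 15 and 33 libraries, and in the controls 14, 3, 0 and 4 of 21. Both ends of this range occurred among pools of the same water: 31 of the 47 groups held a library under 1 CPM beside another at 10 CPM or more. Only 3 groups had every library at 10 CPM or more, namely the Lab Water group without pyriproxyfen and the early summer groups of the TBNS1 inflow (13.5 to 1157 CPM) and of the Cedar-Lake pipe (26.7 to 942 CPM). In 11 groups every library was under 10 CPM. With pyriproxyfen these were both Lab Water groups and Woodland. Without it they were Kerk, the first late summer control set and stormwater groups. The latter were TBNS1 outfall in spring and late summer, TBNS2 inflow in late summer, Cedar-Lake in spring and late summer, and the first SAP set of late summer.

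**Figure D1:**
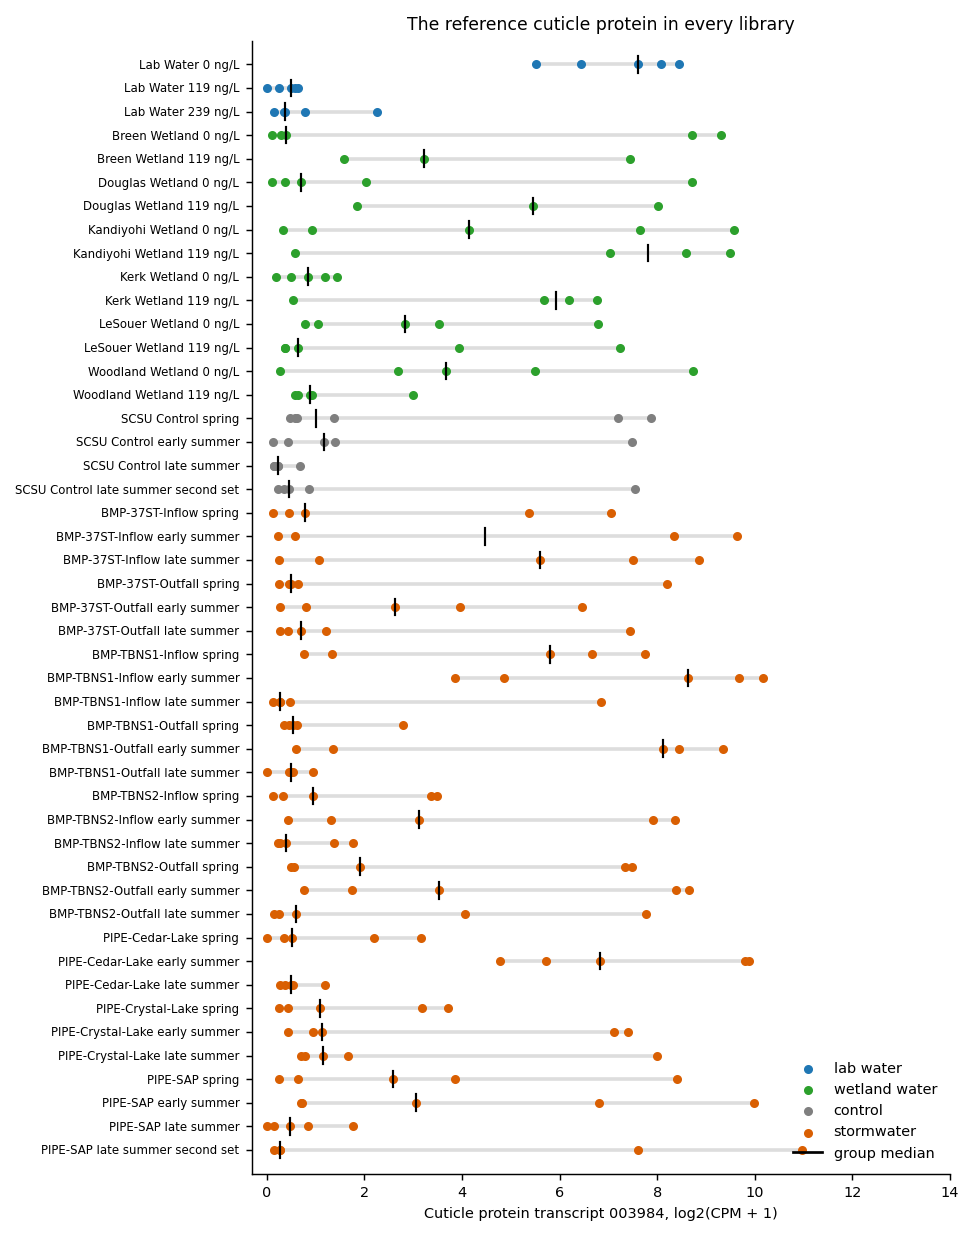
Level of the reference cuticle protein transcript (log2(CPM + 1), horizontal axis) in each library of the 47 groups (rows); points are libraries, black bars group medians, and grey lines the range. In 31 groups the points reach from under 1 CPM to 10 CPM or more.

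In the stormwater libraries, on which the members were selected, r with the reference transcript ran from 0.69 to 0.97 with a median of 0.78, against a median of -0.03 for the 12087 other transcripts. These values define the module and are not a test. The last transcript taken was Dapma7bEVm004041t1 (no name, r = 0.6950, mean 10.8 CPM), and the first left out was Dapma7bEVm023207t1, a cuticular protein analogous to peritrophins 1-F (r = 0.6945, mean 7.96 CPM). No gap separates the module from the transcripts that follow it. Within single seasons the median r of the members was 0.76 in spring, 0.82 in early summer and 0.83 in late summer.

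The relation was then examined in libraries that had no part in the choice. Across the 69 libraries of the wetland experiment, centered within its 15 groups, all 150 members had a positive r with the reference transcript, from 0.61 to 0.96 with a median of 0.80. The median of the other 12087 transcripts was -0.07, and 4242 of them were above 0. An r over 0.7 was found for 86.0% of the 150 members and for 60 other transcripts (0.496% of them). Ranking the wetland libraries by themselves gave a top 150 that held 75.3% of these members. In the 21 stormwater controls all 150 members were again positive, but over a wider range (0.02 to 0.98, median 0.70), with a median of -0.15 for the other transcripts and 73.3% of the members in the controls' own top 150. The points of these correlations are pools, those of a group from the same water, and no p is attached to them.

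**Figure D2:**
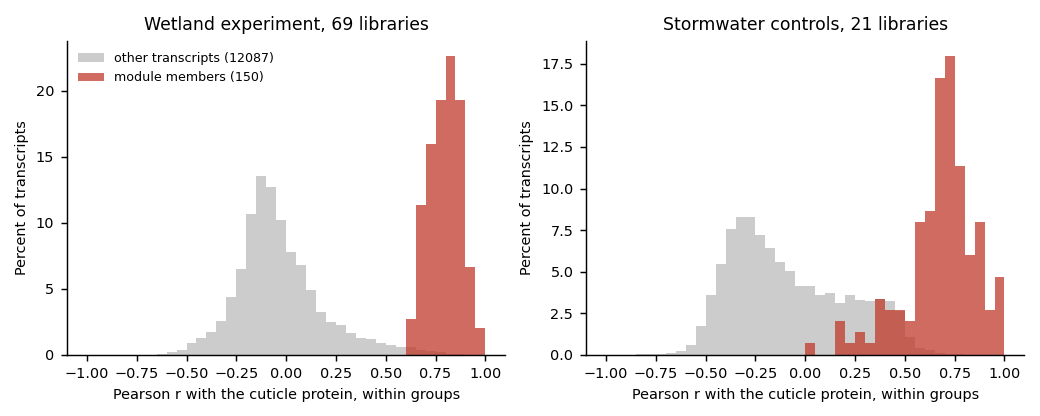
Pearson r of each transcript with the reference cuticle protein within groups (horizontal axis), as the percent of the 150 members (red) and of the 12087 other transcripts (grey), in the wetland experiment (left) and the stormwater controls (right). The members centre on 0.80 and 0.70, and the other transcripts lie around 0.

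A slope on the reference transcript was also fitted for every transcript, with the 15 groups as covariates (quasi-likelihood test of edgeR, adjusted by Benjamini and Hochberg's method over 26256 transcripts). The slope is the log2 change of a transcript for each increase of 1 in log2(CPM + 1) of the reference. All 150 members rose with it at an adjusted p under 0.05, where the share of all transcripts called rising was 3.70% (971). None fell, where 0.952% of all transcripts were called falling. Member slopes ran from 0.08 to 1.15 with a median of 0.48, against a median of -0.003 for the other transcripts. All 150 were also called in the libraries without pyriproxyfen alone and in those without Lab Water. In the 21 controls every member slope was positive (median 0.40), and 30 of 150 passed the same test, where 0.145% of 25590 transcripts were called rising and 0.00391% falling. That count rested on few libraries with a high reference level: it was 10 without the second set of late summer controls, 10 without the replicates numbered 4, and 16 without those numbered 1 or those numbered 5, while DESeq2 called 84.

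Names were taken from the study's own tables, which list mostly transcripts that the study called in these libraries, so the named share is not a neutral sample. A name was found for all but 34 of the members (77.5%) and for 1210 of the 12238 ranked transcripts. Of the named members, 52 are named only as uncharacterized or conserved proteins, and 36 fall into gene lists by their names. The lists are compared below by counts, without a set test. In the slope fit 24.5% of the 1989 tested transcripts with a name rose with the reference and 4.12% fell, and counts over a list are read against these shares rather than the 3.70% of all transcripts.

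Structural cuticle proteins were the largest named group. The module holds 13 of the 58 ranked cuticle transcripts (22.4%), the reference included, whereas it holds 9.67% of the 1210 transcripts with any name. Closest to the reference was a further cuticle protein, Dapma7bEVm001223t1. It ran from 0.171 to 294 CPM with a median of 4.44 in unspiked wetland water (30 libraries) and from 0 to 343 CPM with a median of 15.4 in spiked wetland water (24 libraries). Its r with the reference was 0.96 in the wetland experiment and 0.98 in the controls. The slope was 0.81 ± 0.05 (SE, adjusted p = 8.64e-18, edgeR) in the former and 0.89 ± 0.09 (adjusted p = 1.69e-05) in the latter. It was at 10 CPM or more in 29 libraries of the wetland experiment, which included all 27 in which the reference was.

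Other cuticle members moved over a smaller range or were high in more libraries. Cuticular protein analogous to peritrophins 3-D2 (Dapma7bEVm015400t1), of a family of chitin-binding cuticle proteins, never fell under 15.6 CPM and reached 2860 CPM in the wetland experiment, with a slope of 0.43 ± 0.04 (adjusted p = 3.43e-14, edgeR). Cuticular protein analogous to peritrophins 1-E (Dapma7bEVm002498t1) ran from 0.269 to 993 CPM with a slope of 0.62 ± 0.07 (adjusted p = 4.52e-09). It was at 10 CPM or more in 48 libraries, again with all 27 of the reference among them. The cuticle protein Dapma7bEVm002950t1 was at 10 CPM or more in 45 libraries, 26 of them shared with the reference, and its r of 0.66 in the wetland experiment was among the lower values of the module. Kallisto, with which the reads were assigned to transcripts, divides them between near-identical transcripts, and the value of a single cuticle family member is uncertain to that extent.

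Cuticle proteins did not move as a block. The 45 ranked cuticle transcripts outside the module had a median r of -0.13 in the wetland experiment, with 16 over 0.3 and 7 under -0.3. In the slope fit 34 of 75 cuticle transcripts tested (45.3%) rose with the reference and 1 fell, where 24.5% of all named transcripts rose.

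Proteases and protease inhibitors had 9 members among the 71 ranked (12.7%), not far from the 9.67% of all named transcripts. Neutral endopeptidase (Dapma7bEVm002601t1), a name given to membrane metalloproteases that cleave peptides, had the fifth highest r in the choice of the module. It lay between 3.09 and 333 CPM in the wetland experiment and rose with a slope of 0.52 ± 0.03 (adjusted p = 2.73e-18, edgeR). In the controls its slope was 0.40 ± 0.10 (adjusted p = 0.185). Clip-domain serine proteases, a family that acts in extracellular cascades such as those that start melanization, were represented by 4 members. The pair with the highest mean level, Dapma7bEVm000215t1 and Dapma7bEVm000126t1, ran from 0.475 to 582 CPM and from 0 to 507 CPM, with slopes of 0.68 ± 0.07 (adjusted p = 1.5e-10) and 0.76 ± 0.10 (adjusted p = 8.37e-08). They reached 10 CPM in 44 and 41 libraries, which in both cases included all 27 of the reference. Signal peptide peptidase 3 (Dapma7bEVm028597t1), named after intramembrane proteases that cut leftover signal peptides, was never under 11.1 CPM and had a shallow slope of 0.27 ± 0.04 (adjusted p = 7.53e-08). In all, 22 of 92 proteases and inhibitors tested (23.9%) rose with the reference and 7 fell, so the list as a whole rose no more often than named transcripts in general (24.5%).

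Lipid enzymes and carriers had 9 members among 46 ranked (19.6%). Of the 59 tested, 31 rose with the reference (52.5%) and 4 fell. Elongases of this name lengthen fatty acids to very long chains, and desaturases put double bonds into fatty acid chains. The elongases Dapma7bEVm009992t1 and Dapma7bEVm001621t1 ran from 0 to 257 CPM and from 0.317 to 143.7 CPM, with slopes of 0.53 ± 0.10 (adjusted p = 0.000241, edgeR) and 0.40 ± 0.07 (adjusted p = 4.3e-05). Each was at 10 CPM or more in all 27 libraries where the reference was and in 16 and 19 others. A pair of transcripts named Z9 acyl-CoA desaturase B, Dapma7bEVm028493t1 and Dapma7bEVm001546t1, stayed between 36.4 and 523 CPM and between 25.5 and 334 CPM, with slopes of 0.21 ± 0.03 (adjusted p = 5.48e-09) and 0.20 ± 0.03 (adjusted p = 8.37e-08). The elongases thus went from near 0 to over 100 CPM among pools, and the desaturases were measured in every pool.

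Smaller groups followed. A glucosamine-6-phosphate isomerase (Dapma7bEVm011550t1), an enzyme of amino sugar metabolism, from which chitin is made, was the only chitin list member among 8 ranked. It lay between 43.5 and 383 CPM with a slope of 0.20 ± 0.02 (adjusted p = 1.01e-09, edgeR). The 3 membrane transporters were the potassium channel subunit Dapma7bEVm005293t1 (slope 0.51 ± 0.06, adjusted p = 3.73e-09), the sugar transporter ERD6 Dapma7bEVm000196t1 (0.57 ± 0.06, adjusted p = 9.8e-11) and the sodium channel protein Nach Dapma7bEVm011035t1 (0.69 ± 0.09, adjusted p = 1.94e-08). A zona pellucida-like domain protein (Dapma7bEVm004857t1), of a family of apical matrix proteins that in *Drosophila* shape the cuticle surface, ran from 0.142 to 578 CPM with a slope of 0.67 ± 0.10 (adjusted p = 1.35e-06).

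Members without a place in a list include 3 transcripts named all-trans-retinol 13,14-reductase (r = 0.79, 0.80 and 0.81 in the wetland experiment), an NADPH oxidase (0.87), 3 named cytochrome P450 (0.68, 0.69 and 0.79) and a copper-zinc superoxide dismutase (0.78). These were singled out after their values were seen. The steepest slopes belonged to uncharacterized proteins, with 1.15 ± 0.08 (adjusted p = 7.62e-17, edgeR) for Dapma7bEVm003518t1, 1.05 ± 0.12 for Dapma7bEVm001220t1 and 1.03 ± 0.12 for Dapma7bEVm027570t1. Among the 5 members with the highest r, 3 are of this kind: Dapma7bEVm003373t1 (slope 0.85 ± 0.05, adjusted p = 4.48e-19), Dapma7bEVm001574t1 (0.92 ± 0.08, adjusted p = 5.31e-13) and Dapma7bEVm001864t1 (0.92 ± 0.06, adjusted p = 2.73e-18). The last pair were seen at 10 CPM or more in 13 libraries each, all of them among the 27 of the reference.

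Other lists had no member. Oxidation and hardening enzymes, which cross-link and tan the cuticle, had a median r of 0.35 over 27 ranked transcripts, and 11 of 38 tested rose (28.9%, beside 24.5% of all named transcripts) while 1 fell. The 6 molting hormone and clock factors, among them eclosion hormone, the ecdysone-induced protein 78C and retinoid X receptor, had r between -0.29 and 0.09 in the wetland experiment. None of these 6 was called in the slope fit. Lists of other tissues showed 0 of 11 globins, 0 of 13 muscle and cytoskeleton transcripts, 0 of 25 ribosomal proteins and elongation factors and 1 of 5 digestive enzymes rising, with none falling. The precursor of vitellogenin-1, a yolk protein (Dapma7bEVm000343t1), had an r of 0.11.

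**Figure D3:**
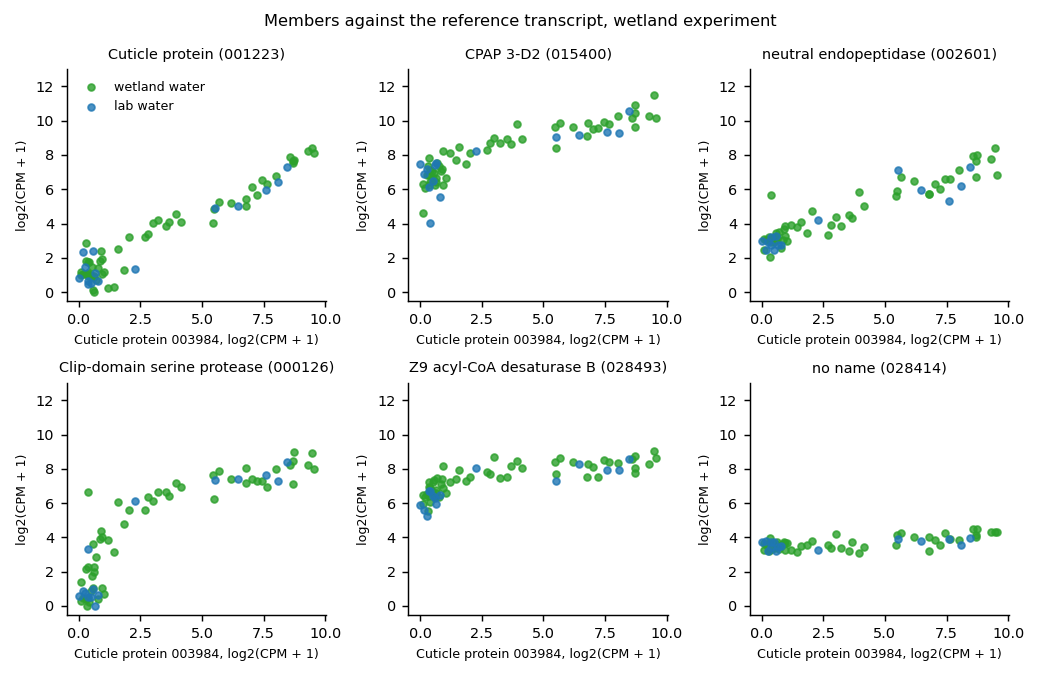
6 members against the reference cuticle protein (horizontal axis) in the 69 libraries of the wetland experiment, both as log2(CPM + 1); green points are wetland water and blue points laboratory water. Slopes differ from 0.81 for the cuticle protein Dapma7bEVm001223t1 to 0.08 for the unnamed Dapma7bEVm028414t1.

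The members differed more in how far they moved than in whether they moved. Their within-group SD on the log2(CPM + 1) scale had a median of 1.57 in the wetland experiment (0.32 to 3.00), 1.66 in stormwater and 1.4 in the controls, against 0.37, 0.41 and 0.46 for the other transcripts. In the wetland experiment 95 members (62.9%) were under 1 CPM in some library and at 10 CPM or more in another, as were 1692 of the 12087 other transcripts (14%). At the other end, 6 members named here were at 10 CPM or more in all 69 libraries. They were the peritrophin-like protein 3-D2, the glucosamine-6-phosphate isomerase, both desaturases, signal peptide peptidase 3 and the unnamed Dapma7bEVm008177t1. The shallowest slope was that of the unnamed Dapma7bEVm028414t1, which stayed between 7.54 and 21.6 CPM (0.08 ± 0.01, adjusted p = 1.08e-06, edgeR). Together the members took between 0.128% and 4.00% of a library's counts in the wetland experiment (median 0.510%), between 0.0866% and 4.94% in stormwater (median 0.433%) and between 0.149% and 1.47% in the controls (median 0.279%).

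The members were also correlated among themselves. In stormwater this restates the rule, since transcripts picked for a high r with a single transcript must largely follow each other. The median r over the 11325 pairs of members was 0.79 in the wetland experiment, 0.77 in stormwater and 0.64 in the controls, and all pairs were positive in the first and second of these sets. A first principal component held 77.7%, 76.7% and 62.5% of their variance. A second component held 7.66%, 7.36% and 10.5%. Its loadings in the wetland experiment and in stormwater had an r of 0.90 over the members, with opposite signs for 29 of them, whereas the wetland and control loadings had an r of 0.14. The negative end of this second axis in the wetland experiment held the cuticle protein Dapma7bEVm002950t1, the cytochrome P450 transcripts Dapma7bEVm005544t1 and Dapma7bEVm009557t1, the zona pellucida-like protein and the elongase Dapma7bEVm001621t1. The positive end held the unnamed Dapma7bEVm028414t1, the cuticle protein Dapma7bEVm008546t1, signal peptide peptidase 3 and the sugar transporter ERD6. The second, smaller pattern was thus alike in stormwater and in the wetland experiment, and the controls, with 21 libraries, did not show it in the same order.

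**Figure D4:**
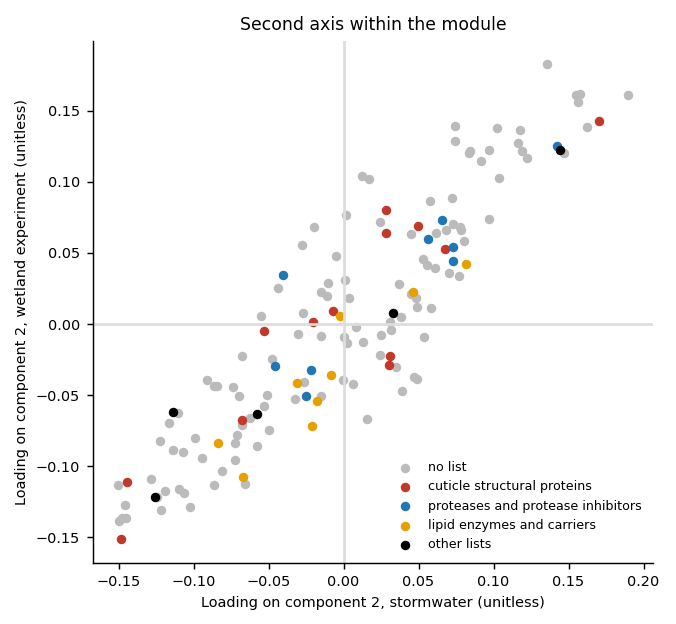
Loadings of the members on the second principal component in stormwater (horizontal) and in the wetland experiment (vertical), both unitless and colored by gene list. Points follow a rising line (r = 0.90), and cuticle proteins occur at both ends.

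In laboratory water the module was lower in the groups with pyriproxyfen than in Lab Water-0 ng/L. The methods describe pyriproxyfen as added in ethanol and this control as water alone, so the compound and its vehicle cannot be told apart in these comparisons. The reference transcript was at 45, 86.2, 193, 270 and 349 CPM in the 5 pools of Lab Water-0 ng/L and at 0, 0.195, 0.414, 0.495 and 0.569 CPM in the 5 pools of Lab Water-119 ng/L. The groups did not overlap, and the treated pools lay at or near the floor. The cuticle protein Dapma7bEVm001223t1 was at 28.9, 32.1, 61, 84.5 and 154.8 CPM in the control and at 0.414, 0.799, 1.1, 1.75 and 4.16 CPM in Lab Water-119 ng/L. Its log2 fold change was -5.51 ± 0.71 (SE, adjusted p = 0.000581, edgeR, n = 5 and 5). The clip-domain serine protease Dapma7bEVm000126t1 was between 153.3 and 337 CPM in the untreated pools and between 0 and 0.991 CPM in the treated ones, a log2 fold change of -8.70 ± 0.71 (adjusted p = 2.71e-05).

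Smaller fold changes were found among members that were measured in every pool. The peritrophin-like protein 3-D2, Dapma7bEVm015400t1, was at 523, 583, 633, 652 and 1513 CPM in the control and at 90.1, 142.4, 172, 180 and 183 CPM in Lab Water-119 ng/L, a log2 fold change of -2.44 ± 0.35 (adjusted p = 0.00107, edgeR). The glucosamine-6-phosphate isomerase Dapma7bEVm011550t1 went from between 184 and 261 CPM to between 51.0 and 63.6 CPM. Its log2 fold change of -1.99 ± 0.16 (adjusted p = 2.44e-05) did not reach the fold required for a call. The desaturase Dapma7bEVm028493t1 fell from between 158.7 and 379 CPM to between 36.4 and 83.9 CPM (-2.17 ± 0.29, adjusted p = 0.000721).

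A transcript was called a differentially expressed gene (DEG) where its adjusted p was under 0.05 and its log2 fold change was beyond 2 in either direction. By this rule 76.8% of the members were lower in Lab Water-119 ng/L than in Lab Water-0 ng/L, where 3.39% of 24858 transcripts were. None of the members was higher, where 1.74% of all transcripts were. By adjusted p alone all but 5 members were lower. No share of all transcripts is given for counts by adjusted p alone, here or below. The same holds for counts at an unadjusted p and at a log2 fold change over 1. The shares by the DEG rule do not match such counts. In all but 8 members every treated pool was below every untreated pool, which held for 4.59% of all transcripts. The median log2 fold change was -4.46, against 0.01 for the other transcripts, and was the same with the 2 members at 0 in all treated pools set to a bound of 3 counts per library. Against that bound Dapma7bEVm001574t1 was at least 35.3-fold lower and Dapma7bEVm000563t1 at least 91.6-fold lower. The called members were all but 1 of those with a name and 0 of the 34 without (median -1.46). Names come largely from the study's tables of its DEGs in this comparison, so counts by gene list carry no separate weight here. Members without a name also had the lower median slope in the wetland experiment (0.19 against 0.54). How far the source of names accounts for the split was not tested. Of the named transcripts outside the module, 722 of 1864 (38.7%) were called lower. In Lab Water-239 ng/L, against the same untreated pools, 43 members were called lower, where 0.683% of 24904 transcripts were, with a median of -2.33. Of these, 41 have a name and 2 do not, and 6.38% of the 1865 named transcripts outside the module were called lower. In 85 members no treated pool reached the untreated ones, which held for 1.86% of all transcripts. The reference transcript was at 0.114, 0.288, 0.306, 0.734 and 3.82 CPM there. A single pool decides the count of 43 called, which was 89 without replicate 4 of Lab Water-239 ng/L and 25 without replicate 1. Between Lab Water-119 ng/L and Lab Water-0 ng/L, 5 of 12 muscle and cytoskeleton transcripts and 2 of 25 ribosomal proteins and elongation factors were called higher and none lower (medians of 2.80 and 1.92), beside 21.6% of all 1981 named transcripts called higher, and their part in the result was not tested. Of 11 globins 1 was called higher and 1 lower, and of 5 digestive enzymes 1 was lower, beside 42.3% of named transcripts called lower.

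With all wetlands pooled, no such fall was seen. The reference transcript ranged from 0.0747 to 756 CPM with a median of 1.5 in 30 unspiked pools and from 0.291 to 714 CPM with a median of 7.69 in 24 pools of Wetland-119 ng/L. Both ranges nearly coincide, but single wetlands went opposite ways. The median of the reference transcript fell from unspiked to spiked pools in Woodland (11.8 to 0.852 CPM) and LeSouer (6.10 to 0.551 CPM). It rose in Breen (0.325 to 8.36 CPM), Douglas (0.619 to 42.9 CPM), Kandiyohi (16.6 to 256 CPM) and Kerk (0.809 to 60.9 CPM). The pools of both groups overlapped in each wetland, and the change was not tested by wetland. Over all wetlands, no member was called in either direction by edgeR, where 0.554% of 26166 transcripts were called higher and 0.558% lower. At an unadjusted p under 0.05, 14 members were higher, and DESeq2 called 0. The median log2 fold change of the members was 0.37, against 0.02 for the other transcripts. In this comparison 13 of 25 ribosomal proteins and elongation factors, 4 of 13 muscle and cytoskeleton transcripts and 4 of 11 globins were called higher and none lower (medians of 2.02, 1.32 and 1.05). Of the digestive enzymes 3 of 5 were called lower (median -2.10) and 0 higher. Proteases and inhibitors had 10 of 92 lower and 3 higher. Of the 1989 named transcripts 5.03% were called higher and 5.78% lower.

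The change from unspiked to spiked water was therefore compared between waters in a single fit of the 64 libraries concerned, a test added after these values were seen. The difference of the changes passed the DEG rule in the direction of wetland water for 70.9% of the members, where 3.81% of 26228 transcripts did, with a median of 4.90. Of the 1872 named transcripts outside the module, 41.3% passed in this direction as well. Only 6 of the 34 members without a name passed. For the clip-domain protease Dapma7bEVm000126t1 the difference was 9.13 ± 2.25 (adjusted p = 0.0059, edgeR), for the glucosamine-6-phosphate isomerase 2.28 ± 0.55 (adjusted p = 0.00493), and for the cuticle protein Dapma7bEVm001223t1 it was 5.43 ± 2.08 (adjusted p = 0.0973). With each Lab Water pool left out in turn, between 52.3% and 68.2% of the members passed. The unspiked arm held ethanol in wetland water and not in laboratory water, so the vehicle and the water cannot be told apart in this difference.

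Direct comparisons of the waters share the same pools. With pyriproxyfen in both, 92 members were higher in Wetland-119 ng/L than in Lab Water-119 ng/L, where 3.52% of 25771 transcripts were, with a median log2 fold change of 3.83. That count fell to between 52 and 68 when a treated Lab Water pool was left out. It included 0 of the 34 members without a name, and 42.5% of the 1872 named transcripts outside the module were called higher too. Without pyriproxyfen no member was called by edgeR or DESeq2, where 0.312% of 25989 transcripts were lower in wetland water. All members nevertheless had a fold change below 0 (median -0.99), and 13 had an unadjusted p under 0.05. The ethanol vehicle differed between these unspiked waters as well, so its part and that of the water cannot be told apart. Every Lab Water value rests on 5 pools from a single exposure, and the untreated 5 are among the few groups in which every pool had a high reference level.

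**Figure D5:**
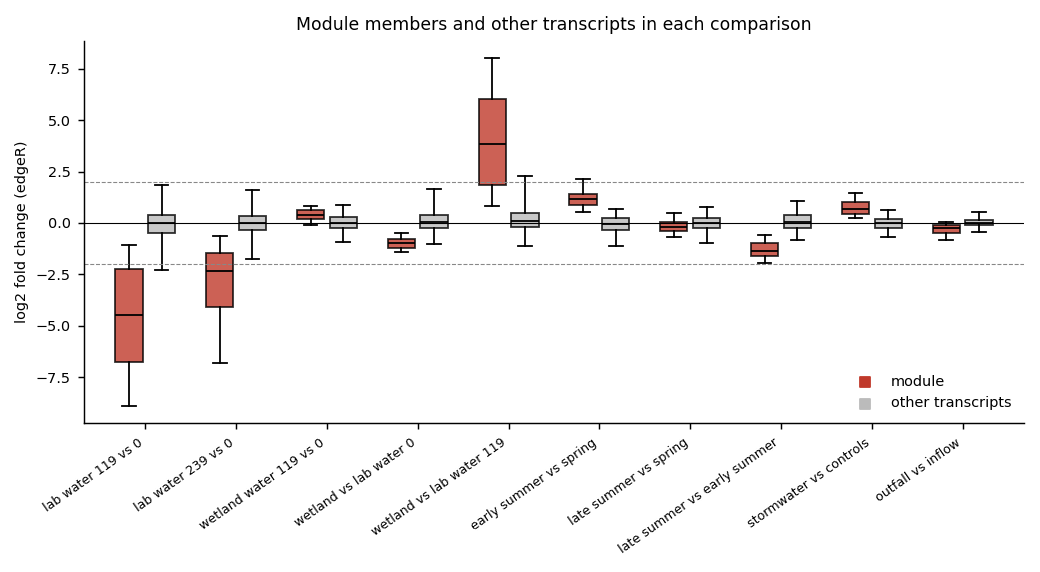
log2 fold changes (edgeR, vertical axis) of the members (red) and all other transcripts (grey) in 10 comparisons; boxes are quartiles, whiskers reach from the 5th to the 95th percentile, and dashed lines mark the DEG threshold of 2. The members lie lowest in Lab Water-119 ng/L against Lab Water-0 ng/L (median -4.46) and above 0 in early summer against spring (median 1.15).

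Stormwater seasons differed in the level of the module. The choice of members subtracted the mean of each sampling point and season, so differences between seasons were not used by it. The reference transcript ran from 0 to 340 CPM with a median of 0.713 in spring, from 0.175 to 1157 CPM with a median of 27.3 in early summer, and from 0 to 2000 CPM with a median of 0.455 in late summer. The ranges overlap almost wholly and the medians differ. It was at 10 CPM or more in 12 of 45 spring, 26 of 44 early summer and 10 of 50 late summer libraries. From spring to early summer it rose by a log2 fold change of 2.68 ± 0.72 (adjusted p = 0.00172, edgeR). Pools of a sampling point entered this fit as separate values, without a term for the point.

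All members were on the higher side in early summer against spring, with a median log2 fold change of 1.15 against -0.03 for the other transcripts. By adjusted p alone all but 17 rose, again without a share of all transcripts to set it against. Only 12 passed the fold of the DEG rule as well, where 0.460% of 26111 transcripts were called higher, and none was lower, where 1.45% were. A further setting, a log2 fold change over 1, gave 87. The count was 7 without the replicates numbered 1, 27 without those numbered 2, and 37 with the replicate number as a block. Named examples were the cuticle protein Dapma7bEVm001223t1 (2.34 ± 0.55, adjusted p = 0.000396), for which the medians were 2.69 CPM in spring and 31.0 CPM in early summer, and the elongase Dapma7bEVm001621t1 (1.75 ± 0.35, adjusted p = 3.3e-05), with medians of 8.09 and 40.6 CPM. The glucosamine-6-phosphate isomerase rose by 0.83 ± 0.18 (adjusted p = 7.81e-05), from a median of 94.5 to one of 208 CPM. In this comparison 10 of 25 ribosomal proteins and elongation factors were called higher (median 1.58), and their part in the result was not tested. Of 13 muscle and cytoskeleton transcripts 1 was called higher and 2 lower. Among the 1989 named transcripts 1.76% were called higher and 7.49% lower.

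Late summer was on the lower side of early summer, which it shares with the comparison above. All members had a fold change below 0, with a median of -1.38. All but 8 fell by adjusted p alone, a count without a share of all transcripts. Here 4 of 25 ribosomal proteins and elongation factors were called lower (median -0.96), and their part in the result was not tested. Of 13 muscle and cytoskeleton transcripts 1 was called higher and 1 lower, and 1 of 5 digestive enzymes was lower. Among the 1987 named transcripts 3.47% were called higher and 1.86% lower. The DEG rule was met by 5 members, where 0.523% of 26171 transcripts were called lower. That count hung on the libraries used: it was 1 without the replicates numbered 1 or those numbered 3, 2 without those numbered 4, 62 without those numbered 5, 40 without the second late summer sets, 35 with sampling point as a covariate and 47 with the replicate block. Between late summer and spring no member was called by edgeR or DESeq2, where 0.340% and 1.15% of 26151 transcripts were higher and lower. There, 11 members were lower and 2 higher at an unadjusted p under 0.05, and the median was -0.17. Library codes carry a different letter for each season, so season and that series of libraries cannot be told apart.

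The controls with the same season labels hold few pools. The reference transcript was at 0.395, 0.486, 0.530, 1.62, 145.7 and 233 CPM in spring, at 0.0949, 0.347, 1.25, 1.63 and 178 CPM in early summer, and between 0.102 and 186 CPM with a median of 0.235 in the 10 late summer libraries. No season stood apart in these values of the reference transcript, and each held a few high pools at most. The members together took 0.304% to 0.991% of the counts in early summer controls and 0.200% to 0.279% in the first late summer set. These ranges did not meet, and early summer lay on the higher side, as in stormwater. The second late summer set (0.180% to 1.10%) and spring (0.149% to 1.47%) overlapped early summer. Seasons were not tested within the controls. Between stormwater and controls no member was called by edgeR, where 0.175% of 26256 transcripts were higher. In that comparison all but 1 of the members were on the higher side (median 0.68), 45 had an unadjusted p under 0.05, and DESeq2 called 1. Between outfall and inflow of the filter sites no member was called by edgeR or DESeq2, where 0.00383% of 26135 transcripts (1) were higher and 0% lower, and 2 members were lower at an unadjusted p under 0.05. The reference transcript had medians of 2.00 CPM in 44 inflow libraries and 0.695 CPM in 45 outfall libraries.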

How the data were processed

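Stranded mRNA-seq reads of 230 libraries were trimmed (Trimmomatic) and pseudoaligned to a transcript set (Kallisto) by the authors. The deposited table holds the resulting estimated counts, not normalized between libraries. Kallisto's version and the settings of both tools were not given in the sources used here. The authors' linear model against variance between experiments was not used here. Wetland and stormwater libraries were kept apart in every fit.

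From the estimated counts, CPM was computed by library totals (5040650 to 15037010) and members were found on log2(CPM + 1) with a pseudocount of 1 CPM. For tests the counts were rounded (31.4% were not whole). Of all transcripts, 26256 varied in each of the experiments and were tested, and 2871 were not. A single library was left out because its title names late summer and the letter in its code is that of early summer. Groups came from the titles. Fits used edgeR 4.0.16 (TMM, quasi-likelihood test, Benjamini-Hochberg adjustment over all transcripts tested) in R 4.3.3 and held only the groups compared. Tests were first run on simulated counts with known changes.

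The members and lists were chosen with earlier results of these data known. Named transcripts follow a rule: the reference, the 5 members with the highest r, those on either side of the limit, up to 4 members of each list with the highest mean CPM in the wetland experiment, and the 3 lowest and 3 highest slopes. Lists were drawn up from the names in the study's tables, and no transcript could be matched to a sequence or a position. Alternatives were DESeq2 1.42.0, limma 3.58.1, median-ratio size factors, filterByExpr, a log2 fold change over 1, the replicate number as a block, water or sampling point as a covariate, sums of the pools of a water, and left-out replicates or sets. For the members they were another pseudocount, rank correlation, TMM scaling and other filters.

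A few counts of members are given as shares of the module, as the members left over, and in 1 case to 2 significant digits.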

Additional observations from a re-analysis of the deposited data

Results flagged for a closer look

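In 11 of 45 groups of 4 to 10 libraries a single pool stood apart from the others by the reference cuticle protein, by Dixon's gap criterion. Chance meets it in about 1 in 20 groups where values are normally distributed, which was not so here. All 11 were high and none was low. Many values lay near the floor, which leaves little room for a low pool to stand apart, so neither the count nor the side is read as a result. The wide gaps were 172 CPM in replicate 2 of 37ST outfall late summer (next pool 1.32 CPM), 292 CPM in replicate 2 of 37ST outfall spring (next 0.57), 114.6 CPM in replicate 5 of TBNS1 inflow late summer (next 0.390), 416 CPM in replicate 1 of Douglas without pyriproxyfen (next 3.09) and 255 CPM in replicate 5 of Crystal-Lake late summer (next 2.17). Among the controls, replicate 1 of early summer held 178 CPM (next 1.63) and replicate 4 of the second late summer set 186 CPM (next 0.831). The other 4 highest pools were themselves under 10 CPM: 5.97 CPM in replicate 4 of TBNS1 outfall spring (next 0.539), 7.02 CPM in replicate 3 of Woodland Wetland-119 ng/L (next 0.903), 1.30 CPM in replicate 4 of Cedar-Lake late summer (next 0.449) and 0.613 CPM in replicate 4 of the control of late summer (next 0.183).

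The change from the unspiked to the spiked groups (Wetland-119 ng/L and Lab Water-119 ng/L) differed between wetland and laboratory water for 70.9% of the members by the test of the difference itself, all in the same direction. This rests on 5 pools in each Lab Water group. In that direction 3.81% of 26228 transcripts passed, and 41.3% of the 1872 named transcripts outside the module. The unspiked wetland waters held the ethanol vehicle and Lab Water-0 ng/L did not, so the part of the vehicle and that of the water cannot be told apart.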

How the results depend on the processing

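The membership was little moved by its settings: of 150 members, 3 were replaced with a pseudocount of 0.1 CPM, 9 with rank correlation, 10 with TMM-scaled CPM, 2 with the second SAP set as its own group, without it, or with the unassigned library counted, 22 with a minimum mean of 1 CPM and 27 with none. The 150 members rising with the reference in the wetland experiment were called under every alternative run, and the calls lower in Lab Water-119 ng/L moved by less than 1.5 times under each.

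Counts that moved by over 1.5 times were these. For the slope in the controls (30), DESeq2 gave 84, the fit without the second late summer set 10, and left-out replicates 10 to 32. For Lab Water-239 ng/L (43) left-out pools gave 25 to 89, and for wetland against laboratory water, both spiked (92) they gave 52 to 68. For early summer against spring (12), a log2 fold change over 1 gave 87 and left-out replicates 7 to 27. For late against early summer (5), a log2 fold change over 1 gave 1.1e+02 (to 2 significant digits), sampling point as a covariate 35, the fit without the second sets 40, and left-out replicates 1 to 62. Late summer against spring (0) gave 1 at a log2 fold change over 1. For stormwater against controls (0), DESeq2 and filterByExpr gave 1 each, a log2 fold change over 1 and the fit without the second sets 2 each, and left-out replicates 0 to 3. The cause was not tested.

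The deviations of same-numbered replicates had a median r of -0.03 over 448 pairs in the wetland experiment and 0.02 over 2449 pairs in the stormwater experiment. These medians do not show that such replicates share only a number. In spring, replicate 1 of every sampling point held between 0 and 0.697 CPM of the reference transcript, and replicate 2 between 0.539 and 292 CPM. Replicate 1 of early summer held between 0.513 and 789 CPM. In late summer replicate 1 held between 0 and 2.17 CPM in the first sets of the sampling points, and 195 CPM in the second SAP set. Whether replicates of a number share a level was not tested. With the replicate block the counts were 14 for the control slope, 37 for early summer against spring, 47 for late against early summer and 70 for wetland against laboratory water, both spiked, and the difference between waters passed for 65.6% of the members (70.9% without the block). The fold change of the reference transcript reversed where it was not called: for late summer against spring (1.05) it was -0.41 with sampling point as a covariate, -0.17 without the second sets and -0.72 to 1.88 with a replicate left out, for outfall against inflow (-0.47) it was -2.04 to 0.073, and for Wetland-119 against Wetland-0 ng/L (-0.26) it was -0.81 to 0.10. Values under 1 CPM are near the floor of 0.2 to 0.595 CPM.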

Other observations

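The 150 transcripts at the opposite end of the ranking, with the lowest r in stormwater, also kept their side in the libraries that did not choose them. In the wetland experiment all 150 had a negative r with the reference cuticle protein (median -0.44), and in the controls all but 1 did (median -0.27). In the slope fit of the wetland experiment 66 of them fell with the reference (edgeR, adjusted p under 0.05), where 0.952% of 26256 transcripts did. In Lab Water-119 ng/L 34 were called higher than in Lab Water-0 ng/L (median log2 fold change 1.24), where 1.74% of 24858 transcripts were, and in early summer 21 were called lower than in spring (median -1.10), where 1.45% of 26111 transcripts were.

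The library left out of every comparison because its title and its code disagree on the season had 12434218 counts. It held 298 CPM of the reference cuticle protein, a median of 68.1 CPM over the 150 other members and 150 members at 5 CPM or more, and the members took 1.71% of its counts.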
